A study of Mus musculus with 10 samples.

Results

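TRAJ40 and TRAJ32 are joining (J) segments of the mouse T cell receptor alpha locus, and the alpha chains that carry them were examined in 10 receptor sequencing libraries of splenic regulatory T (Treg) cells. Members were chosen by the end of the CDR3, the loop of the receptor in which the V and J segments meet: the residues KYVF for TRAJ40 and GNKLIF for TRAJ32. Over all libraries 9493 table entries had the TRAJ40 end and 4449 the TRAJ32 end, of 387286 entries in all and of 194274 without a beta chain J end. Entries with the same CDR3 nucleotides in a library were joined into a single clonotype, which left 9371 TRAJ40 and 4409 TRAJ32 clonotypes, 13780 of the 192330 without a beta J end. Both J segments were singled out after their shares of counts and of distinct clonotypes had been seen in these same libraries. Those shares, and the clone sizes that link them, are therefore described without a test.

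Mice deficient in CNS4 gave 5 libraries, called CNS4KO, and CNS4-floxed mice gave the 5 called CNS4Flox. CNS4 is an enhancer of Foxp3, and Foxp3 encodes the transcription factor that defines Treg cells. The mice were untreated. Their genetic background, their age, any Cre driver and the number of mice or cells per library are not stated in the labels. All p-values thus measure the spread between libraries only. Treg identity itself could not be checked, since CDR3 tables hold no Foxp3 transcript.

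A T cell builds its alpha chain by joining a V segment (TRAV) to a J segment (TRAJ), with bases trimmed from each end and others added between them. The J segments lie in a long array between the V segments and the constant region gene, and a cell whose first join fails to give a useful receptor can join again, using a V segment further upstream and a J segment further downstream. Joins that need few added bases can arise in many cells and in many animals, so that several nucleotide sequences come to encode the same CDR3.

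RefSeq places the genes on GRCm38, which mm10 denotes. There Traj40 lies on chromosome 14 from 54177921 to 54177981 and Traj32 from 54186101 to 54186166, both annotated as J segments. Their starts are 8180 bases apart, Traj32 being nearer to the constant region gene Trac (54220521 to 54224198). The part of each J segment that enters the CDR3 was read from the libraries as the most frequent base at each position counted from the 3′ end, for as long as that base was found in at least 60% of distinct CDR3s. These majority ends are shown because trimming is measured against them, and they need not equal the germline segments. The J end ran over 26 bases in TRAJ40 and 31 bases in TRAJ32, and capitals mark it here and in every sequence below.

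TRAJ40 majority end: ATACAGGAAACTACAAATACGTCTTT
TRAJ32 majority end: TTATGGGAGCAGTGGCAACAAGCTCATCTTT

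The definition by residues had a sharp edge. Just outside it, 15 entries ended in YVF without the K, and 4 ended in NKLIF without the G. Just inside, 65 TRAJ40 entries lacked the full NYKYVF end and 8 TRAJ32 entries lacked the full SGNKLIF end.

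Depth was 61793 to 95853 counts per library, of which 40664 to 68850 had no beta J end and are called alpha counts here. One pair of libraries, CNS4KO replicate 5 and CNS4Flox replicate 3, was set apart for shared beta clonotypes and is called the pair with many shared clonotypes. It also shared more TRAJ40 clonotypes than any other pair. These libraries had 205 TRAJ40 nucleotide CDR3s in common, against 83 to 181 in the other 44 pairs. They had 65 TRAJ32 CDR3s in common, against 29 to 74, and 3 other pairs shared more. Results below are therefore also given without both where a value rests on them. The invariant alpha chain of NKT cells, counted as 15-residue CDR3s that start with CVVG and have the TRAJ18 end RLHF, held 0.150% to 0.258% of alpha counts in CNS4KO libraries and 0.101% to 0.235% in CNS4Flox libraries. The invariant chain of MAIT cells, searched as 12-residue CDR3s that start with CAV and end in QLIW, was listed 0 times. Only 10 entries of all did not end in F, so this count does not bear on the presence of MAIT cells.

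TRAJ40 took a larger share of alpha counts in CNS4KO libraries, but hardly a larger share of distinct clonotypes. It held 5.72%, 4.97%, 5.63%, 5.48% and 5.68% of alpha counts in CNS4KO replicates 1 to 5, against 4.42%, 4.75%, 4.80%, 4.41% and 5.30% in CNS4Flox replicates 1 to 5. All CNS4KO libraries but replicate 2 lay above every CNS4Flox library, and replicate 2 lay below only CNS4Flox replicate 5. The means were 5.50% ± 0.309 in CNS4KO and 4.74% ± 0.366 in CNS4Flox (SD over 5 libraries), a ratio of 1.16. The difference of the means was 0.762 percentage points. For scale, the 95% Wilson interval for counting error was 5.55% to 5.90% in CNS4KO replicate 1 and 4.23% to 4.61% in CNS4Flox replicate 1. The intervals of CNS4KO replicate 2 (4.78% to 5.16%) and CNS4Flox replicate 5 (5.11% to 5.50%) overlapped. Such intervals treat each count as an independent draw, which counts of the same clonotype are not, so they understate the error.

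By distinct clonotypes TRAJ40 held 4.70%, 4.78%, 5.08%, 4.98% and 4.93% in CNS4KO replicates 1 to 5, against 4.88%, 4.72%, 5.13%, 4.83% and 4.74% in CNS4Flox replicates 1 to 5. The groups overlapped throughout, with means of 4.89% ± 0.152 in CNS4KO and 4.86% ± 0.167 in CNS4Flox (SD over 5 libraries). Without CNS4KO replicate 3 or CNS4Flox replicate 2 the small difference changed sign. Other ends showed a like pattern: TRAJ50 held 2.41% of alpha counts in CNS4KO and 1.91% in CNS4Flox (ratio 1.26), and TRAJ17 held 4.15% in CNS4KO and 3.52% in CNS4Flox (ratio 1.18), with ratios of 1.02 and 1.03 by distinct clonotypes. Among the 30 TRAJ ends with at least 100 distinct clonotypes in every library, the ratio of 1.16 for TRAJ40 counts ranked 3, and the ratios ran from 0.785 to 1.26. By share of counts, only 1 of these ends, TRAJ40, had as many as 4 CNS4KO libraries above every CNS4Flox library. TRAJ40 was chosen with these shares in view.

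TRAJ32 showed the other pattern, with a larger share of distinct clonotypes in CNS4KO and overlapping shares of counts. It held 2.63%, 2.41%, 2.44%, 2.41% and 2.39% of distinct clonotypes in CNS4KO replicates 1 to 5, against 2.22%, 2.28%, 1.83%, 2.28% and 2.18% in CNS4Flox replicates 1 to 5. Every CNS4KO library lay above every CNS4Flox library. The means were 2.46% ± 0.100 in CNS4KO and 2.16% ± 0.189 in CNS4Flox (SD over 5 libraries), a ratio of 1.14. The lowest value, in CNS4Flox replicate 3, belonged to the pair with many shared clonotypes, and without both libraries of that pair the ratio was 1.10. Over the same 30 ends the ratio by distinct clonotypes ran from 0.949 to the 1.14 of TRAJ32, with TRAJ42 next at 1.05. Of the 30 ends, only 1, TRAJ32, had all 5 CNS4KO libraries above every CNS4Flox library by this share. Ends with CNS4KO libraries below were not counted. TRAJ32 was chosen with these shares in view, so its separation is no independent evidence.

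By counts TRAJ32 held 2.14%, 1.85%, 1.94%, 1.87% and 2.05% of alpha counts in CNS4KO replicates 1 to 5, against 2.15%, 1.93%, 1.36%, 1.83% and 1.82% in CNS4Flox replicates 1 to 5. The highest value of all was that of CNS4Flox replicate 1. The mean of 1.97% ± 0.123 in CNS4KO and 1.82% ± 0.287 in CNS4Flox (SD over 5 libraries) differed by 0.150 percentage points, and by 0.0151 without the pair with many shared clonotypes.

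**Figure D1:**
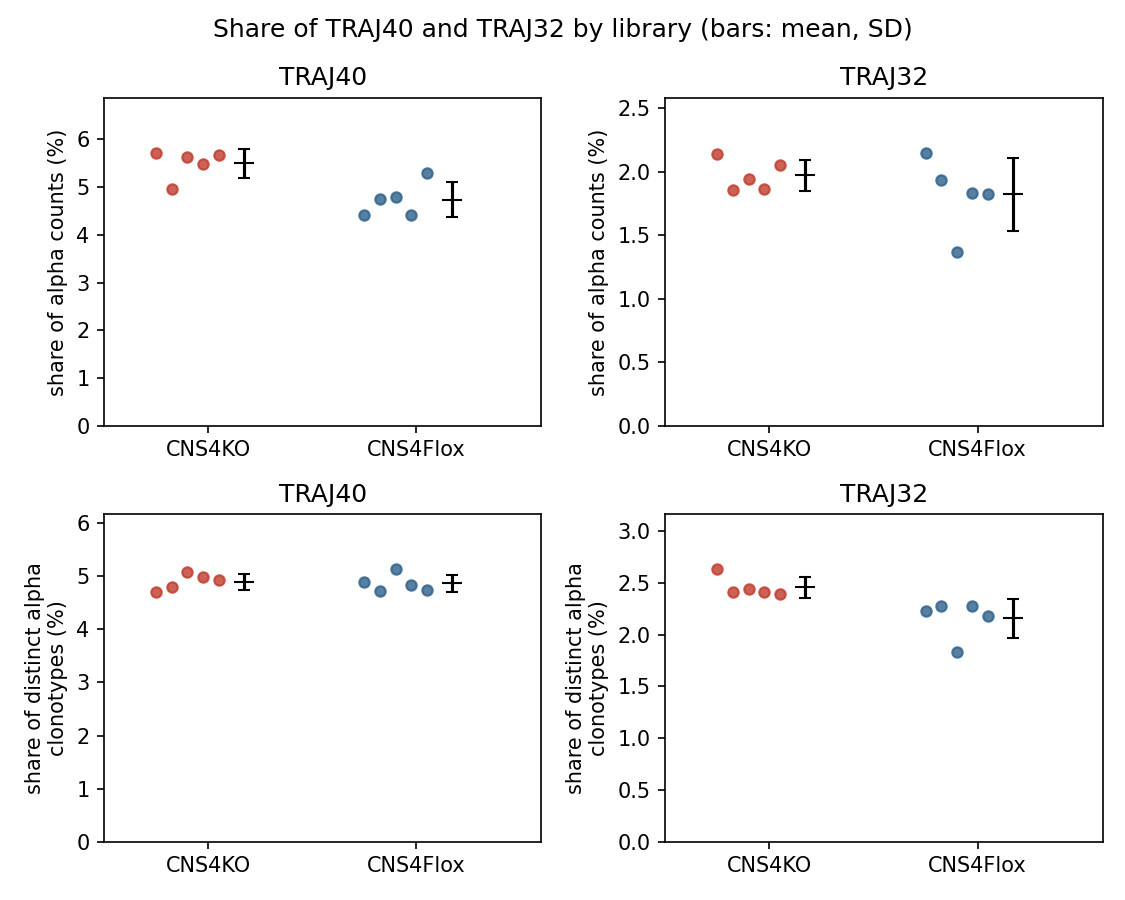
Share of TRAJ40 (left) and TRAJ32 (right) among alpha counts (top, percent) and among distinct alpha clonotypes (bottom, percent), with 1 point per library and the mean and SD of 5 libraries at the right of each group. TRAJ40 counts are higher in 4 of 5 CNS4KO libraries than in any CNS4Flox library, while for TRAJ32 all 5 CNS4KO libraries lie above by distinct clonotypes.

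Among these 30 TRAJ ends, TRAJ40 ranked 5 and TRAJ32 ranked 21 by mean share of distinct clonotypes. TRAJ40, at 4.88% ± 0.151 (SD over 10 libraries), stood between TRAJ34 at 4.92% ± 0.242 and TRAJ15 at 4.83% ± 0.274. One step further lay TRAJ26 at 4.94% ± 0.222 above and TRAJ12 at 4.65% ± 0.216 below. The difference between TRAJ40 and TRAJ26, TRAJ34 or TRAJ15 was smaller than their spread over libraries. TRAJ32, at 2.31% ± 0.213, had the same mean as TRAJ42 (2.31% ± 0.118), with TRAJ56 at 2.43% ± 0.149 above and TRAJ50 at 1.96% ± 0.0683 and TRAJ53 at 1.85% ± 0.155 below.

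The TRAJ ends whose share of distinct clonotypes followed that of TRAJ40 most closely over the 10 libraries were TRAJ21 (Pearson r = 0.616), TRAJ11 (r = 0.413) and TRAJ34 (r = 0.334). For TRAJ32 they were TRAJ42 (r = 0.664), TRAJ17 (r = 0.471) and the joint end of TRAJ27 and TRAJ52 (r = 0.456). These values describe 10 points that share their library and their total, and all shares of a library are bound to sum to a constant.

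Clones were larger in CNS4KO for both J segments. A TRAJ40 clonotype held 4.69, 3.27, 3.43, 2.94 and 3.12 counts on average in CNS4KO replicates 1 to 5, against 1.66, 2.05, 2.20, 1.85 and 2.50 in CNS4Flox replicates 1 to 5. Each CNS4KO library lay above each CNS4Flox library, with CNS4KO replicate 1 far above the rest. For TRAJ32 the values were 3.13, 2.42, 2.46, 2.07 and 2.33 counts in CNS4KO replicates 1 to 5, against 1.78, 1.73, 1.76, 1.63 and 1.87 in CNS4Flox replicates 1 to 5, again without overlap. All alpha clonotypes together moved the same way, with 3.09 ± 0.474 counts in CNS4KO and 2.10 ± 0.199 in CNS4Flox (SD over 5 libraries). Set against those values, TRAJ40 clonotypes were larger in CNS4KO (3.49 ± 0.694) and about equal in CNS4Flox (2.05 ± 0.320), whereas TRAJ32 clonotypes were smaller in both (2.48 ± 0.392 in CNS4KO and 1.75 ± 0.0840 in CNS4Flox, SD over 5 libraries). All alpha clonotypes were also without overlap, with 2.67 counts or more in CNS4KO and 2.35 or fewer in CNS4Flox. At equal alpha counts, 40664 in each library, the ratio of CNS4KO to CNS4Flox was 1.57 for TRAJ40 and 1.32 for TRAJ32. It was not taken for all alpha clonotypes at that setting. Equal counts do not make cell input equal. CNS4KO libraries listed 17058 alpha clonotypes on average and CNS4Flox libraries 21408. Whether a count is a read or a molecule is not stated.

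**Figure D2:**
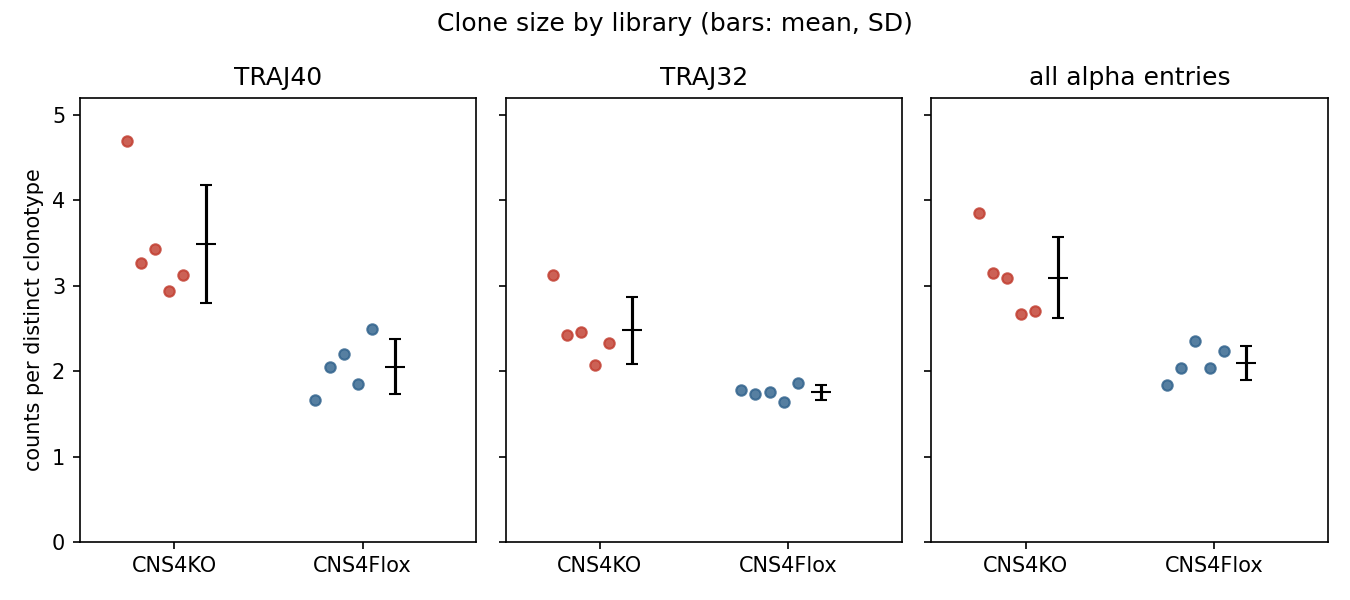
Counts per distinct clonotype of TRAJ40, TRAJ32 and all alpha entries, with 1 point per library and the mean and SD of 5 libraries at the right of each group. CNS4KO libraries lie above CNS4Flox libraries in all 3 panels, and TRAJ32 lies below all alpha entries in both groups.

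Each TRAJ end was also set against the median of the other ends in the same library. The ratio of a share of counts to a share of distinct clonotypes is itself a relative clone size, so these values too were in view when the members were chosen and are given as a description. TRAJ32 clonotypes were smaller than that median in 10 of 10 libraries, by 0.24 ± 0.12 on the log2 scale of counts per clonotype (SD of the difference), a ratio of 0.849. A sign-flip test of this kind called 30% of the 30 ends, and nothing is read from it for the members. TRAJ40 lay above the median in 6 of 10 libraries, by 0.13 ± 0.19. Its difference from the median averaged 0.26 in CNS4KO and -0.01 in CNS4Flox.

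Clonotypes with a single count were most frequent in TRAJ32 of all 30 ends. They made up 58.0%, 65.5%, 60.8%, 62.9% and 61.6% of TRAJ32 clonotypes in CNS4KO replicates 1 to 5, against 70.7%, 72.7%, 73.2%, 74.1% and 69.2% in CNS4Flox replicates 1 to 5. TRAJ32 exceeded the median of the other ends in 10 of 10 libraries, by 5.19 ± 2.56 percentage points. This measure of clone size is likewise given without a test, and 43.3% of ends were called by it. In TRAJ40 they made up 57.9% ± 3.84 in CNS4KO and 66.3% ± 2.78 in CNS4Flox (SD over 5 libraries). TRAJ40 differed from the median of the other ends by 0.258 ± 1.27 percentage points.

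Large TRAJ40 clonotypes held more of the TRAJ40 counts in CNS4KO on average. The 10 largest TRAJ40 clonotypes held 41.4%, 26.1%, 34.7%, 25.6% and 26.0% of TRAJ40 counts in CNS4KO replicates 1 to 5, against 8.79%, 17.4%, 14.7%, 10.6% and 26.2% in CNS4Flox replicates 1 to 5. CNS4Flox replicate 5 lay within the CNS4KO range and the other CNS4Flox libraries below it. With at least 20 counts there were 24, 18, 11, 13 and 21 TRAJ40 clonotypes in CNS4KO replicates 1 to 5, against 2, 9, 11, 4 and 6 in CNS4Flox replicates 1 to 5. Numbers above a fixed count rise with depth, and alpha counts averaged 52783 in CNS4KO and 44759 in CNS4Flox. All alpha clonotypes together were also larger in CNS4KO, and neither measure was taken for them or for other TRAJ ends. These values are thus not shown to be particular to TRAJ40. The largest TRAJ40 and the largest TRAJ32 clonotype of each library were then left out, while all other TRAJ ends stayed whole. TRAJ40 held 5.04% of alpha counts in CNS4KO and 4.50% in CNS4Flox, a ratio of 1.12. Of 5 CNS4KO libraries, 4 were still above all CNS4Flox libraries. The 10 largest TRAJ32 clonotypes held 26.2% ± 4.04 of TRAJ32 counts in CNS4KO and 19.3% ± 2.54 in CNS4Flox (SD over 5 libraries).

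The largest TRAJ40 clonotypes differed from library to library, as the 4 largest of these leading clonotypes show. Each is given with the bases that match the majority end in capitals.

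CNS4KO replicate 1, start CAVS: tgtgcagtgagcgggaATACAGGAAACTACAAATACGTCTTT
CNS4KO replicate 3, start CAVS: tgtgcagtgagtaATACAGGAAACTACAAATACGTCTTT
CNS4KO replicate 5, start CAAY: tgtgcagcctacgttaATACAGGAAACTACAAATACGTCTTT
CNS4Flox replicate 5, start CAAE: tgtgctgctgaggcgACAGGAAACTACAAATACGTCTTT

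The first of these held 431 counts, 10.9% of the TRAJ40 counts of CNS4KO replicate 1, and occurred in 3 libraries with at most 1 count elsewhere. The second held 299 counts in CNS4KO replicate 3, occurred in 4 libraries and reached 34 counts in another. The third, with 248 counts in CNS4KO replicate 5, and the last, with 427 counts and 15.9% of the TRAJ40 counts of CNS4Flox replicate 5, were each found in 1 library. In CNS4KO replicates 2 and 4 the largest TRAJ40 clonotype held 168 and 177 counts, and in CNS4Flox replicates 1 to 4 it held 34, 67, 44 and 43. At the amino acid level each of the 4 was listed in more libraries than at the nucleotide level: the CDR3 of the CAVS chain in CNS4KO replicate 3 was listed in 10 libraries and that of the CAAE chain in 8.

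No TRAJ32 clonotype reached 100 counts. The largest held 48, 86, 59, 30 and 39 counts in CNS4KO replicates 1 to 5, against 43, 71, 33, 21 and 62 in CNS4Flox replicates 1 to 5, so that the groups overlapped. The largest of all, in CNS4KO replicate 2, was a chain of 17 residues whose nucleotide CDR3 was found in that library alone.

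CNS4KO replicate 2, start CALS: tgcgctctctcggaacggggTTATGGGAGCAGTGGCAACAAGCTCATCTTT

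CDR3 length did not differ detectably between the groups for either J segment. TRAJ40 CDR3s, each distinct clonotype counted once, averaged 40.7 ± 0.0892 bases in CNS4KO and 40.6 ± 0.156 in CNS4Flox (SD over 5 libraries). The library means were 40.7, 40.8, 40.6, 40.8 and 40.6 bases in CNS4KO replicates 1 to 5, against 40.5, 40.7, 40.5, 40.7 and 40.9 in CNS4Flox replicates 1 to 5. The difference was 0.0596 bases, with a 95% interval of -0.122 to 0.241 and a limma adjusted p of 0.787. TRAJ32 CDR3s were longer, at 45.3 ± 0.200 bases in CNS4KO and 45.3 ± 0.165 in CNS4Flox (SD over 5 libraries), and differed by -0.0429 bases (95% interval -0.251 to 0.165, limma adjusted p = 0.808). Of the 30 TRAJ ends, 0% were called by limma for CDR3 length, and 1 was at an unadjusted p under 0.05. Both intervals are narrower than a single codon. Without the pair with many shared clonotypes the differences were 0.0504 bases for TRAJ40 and -0.0589 bases for TRAJ32.

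TRAJ40 chains most often had 13 residues, with 33.4% ± 2.42 of clonotypes in CNS4KO and 32.5% ± 2.12 in CNS4Flox, and next 14 residues, with 28.9% ± 1.50 in CNS4KO and 29.2% ± 1.23 in CNS4Flox (SD over 5 libraries). TRAJ32 chains peaked at 15 residues, with 34.9% ± 1.71 in CNS4KO and 34.2% ± 2.19 in CNS4Flox, followed by 16 residues, with 24.3% ± 2.90 in CNS4KO and 25.0% ± 3.30 in CNS4Flox (SD over 5 libraries). The TRAJ32 majority end is itself 5 bases longer than that of TRAJ40.

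**Figure D3:**
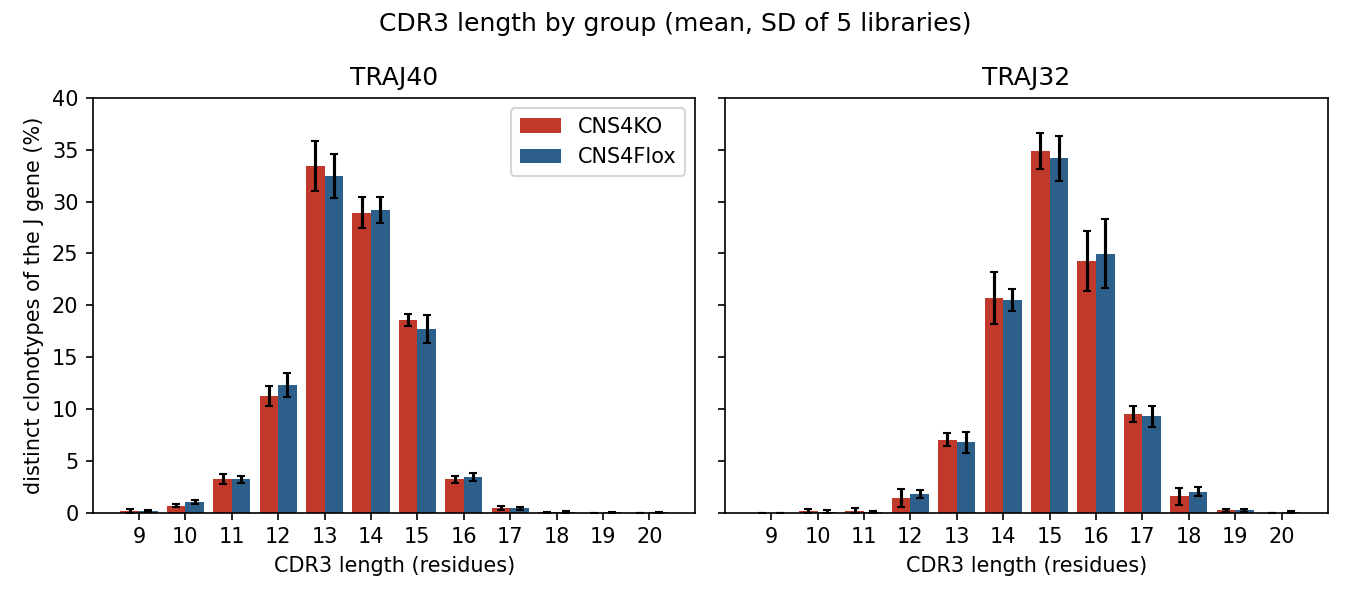
CDR3 length in residues of TRAJ40 (left) and TRAJ32 (right) clonotypes, as percent of the distinct clonotypes of the J segment, with bars for the mean and error bars for the SD of 5 libraries. The CNS4KO and CNS4Flox bars peak at the same length, 13 residues in TRAJ40 and 15 in TRAJ32.

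Trimming of the J end was measured as the number of bases at the 3′ end of the CDR3 that match the majority end without a break. TRAJ40 clonotypes matched 24.9 ± 0.0624 bases in CNS4KO and 24.9 ± 0.0380 in CNS4Flox (SD over 5 libraries), a difference of -0.0377 (95% interval -0.117 to 0.0415, limma adjusted p = 0.824). TRAJ32 clonotypes matched 29.8 ± 0.0706 bases in CNS4KO and 29.8 ± 0.0612 in CNS4Flox (SD over 5 libraries), a difference of -0.0671 (95% interval -0.157 to 0.0231, limma adjusted p = 0.520). Of the 30 ends, 0% were called, with 2 at an unadjusted p under 0.05. Without the pair with many shared clonotypes the differences were -0.0148 bases for TRAJ40 and -0.0333 for TRAJ32. The full majority end was kept by 59.2% ± 1.30 of TRAJ40 clonotypes in CNS4KO and 60.6% ± 1.08 in CNS4Flox. For TRAJ32 it was kept by 56.9% ± 1.53 in CNS4KO and 57.8% ± 1.60 in CNS4Flox (SD over 5 libraries). These shares lie near 60% because the majority end was cut at that share of the same CDR3s, and they are no trimming rate. Matched bases cannot exceed the 26 and 31 bases of the majority ends. Differences in trimming upstream of the majority ends could therefore not be seen.

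On the V side the members differed from each other, and neither differed detectably between CNS4KO and CNS4Flox. The V segment was not named, since the tables give beta chain names to alpha chains, and the first residues of the CDR3 stand in for it. Starts with the residues CAA made up 30.2% ± 2.08 of TRAJ40 and 8.05% ± 1.66 of TRAJ32 clonotypes (SD, n = 10), higher in TRAJ40 in 10 of 10 libraries. CAL starts made up 31.0% ± 1.10 of TRAJ40 and 44.2% ± 1.92 of TRAJ32 clonotypes, CAV starts 18.7% ± 0.832 of TRAJ40 and 24.1% ± 1.63 of TRAJ32, and CVV starts 0.311% ± 0.255 of TRAJ40 and 3.69% ± 0.657 of TRAJ32, each lower in TRAJ40 in 10 of 10 libraries. These 4 starts each had p = 0.00195 in a two-sided exact sign-flip permutation test, the smallest that 1024 sign assignments of the libraries allow, and 0.00430 after adjustment over 11 starts, in a comparison in which 81.8% of starts were called. Among all other TRAJ ends, CAA starts held 28.4% of clonotypes when TRAJ40 was left out and 29.0% when TRAJ32 was left out, so that TRAJ40 lay near the other ends and TRAJ32 far below them.

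By the first 4 residues, the most frequent TRAJ40 starts were CALS with 12.5% ± 0.681 of clonotypes in CNS4KO and 12.7% ± 1.23 in CNS4Flox, CAAS with 11.6% ± 1.43 in CNS4KO and 13.5% ± 0.808 in CNS4Flox, and CAVS with 9.44% ± 0.382 in CNS4KO and 10.001% ± 0.673 in CNS4Flox (SD over 5 libraries). They were followed by CALG with 6.95% ± 1.15 in CNS4KO and 6.30% ± 1.05 in CNS4Flox, and CAAE with 5.01% ± 0.191 in CNS4KO and 4.87% ± 0.970 in CNS4Flox (SD over 5 libraries). In TRAJ32 the order was CALS with 17.1% ± 1.79 in CNS4KO and 17.5% ± 1.53 in CNS4Flox, CAVS with 12.04% ± 0.881 in CNS4KO and 12.4% ± 1.39 in CNS4Flox, and CALG with 11.9% ± 2.21 in CNS4KO and 11.3% ± 1.84 in CNS4Flox (SD over 5 libraries). CAMR, with 6.46% ± 0.812 in CNS4KO and 5.002% ± 0.948 in CNS4Flox, and CAVR, with 5.59% ± 0.726 in CNS4KO and 5.55% ± 1.06 in CNS4Flox, completed the leading 5 (SD over 5 libraries).

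Of 15 TRAJ40 starts tested between CNS4KO and CNS4Flox with edgeR's quasi-likelihood test on numbers of distinct clonotypes, 0 passed an adjusted p of 0.05, and 1, CAAS, was at an unadjusted p under 0.05 (log2 fold change -0.22, edgeR adjusted p = 0.585). Of 9 TRAJ32 starts 0 passed and 1, CAMR, was at an unadjusted p under 0.05 (log2 fold change 0.37, edgeR adjusted p = 0.756). Over all 376 combinations of a TRAJ end and a start, 0% were called and 19 were at an unadjusted p under 0.05. The median log2 fold change was 0.05 over the TRAJ40 starts, 0.02 over the TRAJ32 starts and -0.0017 over all 376.

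Several nucleotide sequences often encoded the same CDR3. The 9371 TRAJ40 clonotypes comprised 6545 distinct nucleotide CDR3s and 3730 amino acid CDR3s, and the 4409 TRAJ32 clonotypes comprised 3215 and 2036. The largest number of nucleotide variants of a single amino acid CDR3 was 19 in TRAJ40, reached by 2 CDR3s, and 15 in TRAJ32. The 5 variants found in most libraries are shown for one of the former, of 13 residues with the start CAAV, and for the latter, of 15 residues with the start CALS, because they show where the variants differ.

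TRAJ40 CAAV variant in 9 libraries: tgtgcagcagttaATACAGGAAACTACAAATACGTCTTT
TRAJ40 CAAV variant in 7 libraries: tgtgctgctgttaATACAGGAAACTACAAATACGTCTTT
TRAJ40 CAAV variant in 6 libraries: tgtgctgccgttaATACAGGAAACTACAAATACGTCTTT
TRAJ40 CAAV variant in 5 libraries: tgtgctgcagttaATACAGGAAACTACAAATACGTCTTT
TRAJ40 CAAV variant in 5 libraries: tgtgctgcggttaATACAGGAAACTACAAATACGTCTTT
TRAJ32 CALS variant in 5 libraries: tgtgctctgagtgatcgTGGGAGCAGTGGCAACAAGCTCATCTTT
TRAJ32 CALS variant in 5 libraries: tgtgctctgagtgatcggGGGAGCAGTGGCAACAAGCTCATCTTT
TRAJ32 CALS variant in 4 libraries: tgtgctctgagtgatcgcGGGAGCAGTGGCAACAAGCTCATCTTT
TRAJ32 CALS variant in 4 libraries: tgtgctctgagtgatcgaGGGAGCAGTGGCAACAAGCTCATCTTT
TRAJ32 CALS variant in 2 libraries: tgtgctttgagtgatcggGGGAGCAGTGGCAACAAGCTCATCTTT

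All 5 TRAJ40 variants kept 26 matching J bases and differed within the 13 bases before them. The TRAJ32 variants kept 27 or 28 matching bases and differed in the 17 or 18 bases before them. None of these 10 sequences had more than 29 counts over all libraries.

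The share of amino acid CDR3s with at least 2 nucleotide variants in a library was compared at equal numbers of clonotypes per J segment. It was 13.5%, 16.0%, 15.1%, 15.7% and 14.8% for TRAJ40 in CNS4KO replicates 1 to 5, against 17.1%, 15.9%, 15.9%, 17.1% and 15.7% in CNS4Flox replicates 1 to 5. The groups overlapped, and the difference of -1.31 percentage points had a 95% interval of -3.15 to 0.521 and a limma adjusted p of 0.947. For TRAJ32 the share was 11.03% ± 1.06 in CNS4KO and 11.3% ± 1.59 in CNS4Flox (SD over 5 libraries), a difference of -0.223 points (95% interval -2.08 to 1.63, limma adjusted p = 0.947). The equal number was 758 clonotypes for TRAJ40 and 365 for TRAJ32, so the shares of the 2 J segments are not comparable with each other. Of the 30 TRAJ ends 0% were called, with 1 at an unadjusted p under 0.05. Without setting the numbers of clonotypes equal, the TRAJ40 difference was -3.18 points (limma adjusted p = 0.0342), in a comparison that called 20% of the 30 ends. All 30 ends were then lower in CNS4KO, by a median difference of -2.16 points. TRAJ40 clonotypes numbered 758 to 1015 in CNS4KO libraries and 957 to 1170 in CNS4Flox libraries. Without the pair with many shared clonotypes the differences were -1.35 points for TRAJ40 and 0.0786 for TRAJ32.

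Set beside other TRAJ ends, TRAJ40 had few such convergent CDR3s. At 300 clonotypes per end and library they made up 8.44% ± 0.873 of TRAJ40 CDR3s (SD, n = 10), the lowest of 21 ends with enough clonotypes, against a median of 10.3% over the other ends. TRAJ40 lay below that median in 10 of 10 libraries, by a difference of -1.83 ± 0.901 points (exact sign-flip p = 0.00195, adjusted p = 0.00456). The same comparison called 71.4% of the 21 ends. TRAJ32, at 9.64% ± 1.28, differed from the median of its other ends by -0.614 ± 1.31 points (exact sign-flip p = 0.174, adjusted p = 0.183).

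Sharing between libraries did not differ detectably between the groups at equal numbers of clonotypes. The mean Jaccard overlap of TRAJ40 amino acid CDR3s, the number in both libraries of a pair over the number in either, was 0.163 among CNS4KO pairs (range 0.151 to 0.175) and 0.167 among CNS4Flox pairs (range 0.158 to 0.185), against 0.167 between the groups. The difference of -0.00413 had p = 0.532 in a two-sided exact permutation test over all assignments of the libraries (adjusted p = 0.903). For TRAJ32 the mean was 0.139 among CNS4KO pairs (range 0.131 to 0.153) and 0.132 among CNS4Flox pairs (range 0.115 to 0.150), a difference of 0.00644 (exact permutation p = 0.294, adjusted p = 0.903). By this test 0% of the 30 ends were called and 0 were at an unadjusted p under 0.05. Its smallest possible p, 0.00794, passes adjustment over 30 ends only if several ends reach it together. A difference in 1 end alone could thus not have been called. The equal number was 758 clonotypes for TRAJ40 and 365 for TRAJ32, so their overlaps are not comparable with each other. Other settings gave larger TRAJ40 differences: -0.0218 without equal numbers of clonotypes (exact permutation p = 0.0476, adjusted p = 0.0893), where the median over all ends was -0.0225, and -0.0244 with single-count clonotypes left out (exact permutation p = 0.0317, adjusted p = 0.133), where it was -0.0168. By the Morisita-Horn index, which weights CDR3s by their counts, TRAJ40 overlap was 0.146 among CNS4KO pairs and 0.240 among CNS4Flox pairs (exact permutation p = 0.143, adjusted p = 0.283), and the median difference over all ends was -0.0861. Without the pair with many shared clonotypes, which itself had the highest TRAJ40 overlap of all pairs at 0.190, the differences were -0.000571 for TRAJ40 and 0.00981 for TRAJ32.

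**Figure D4:**
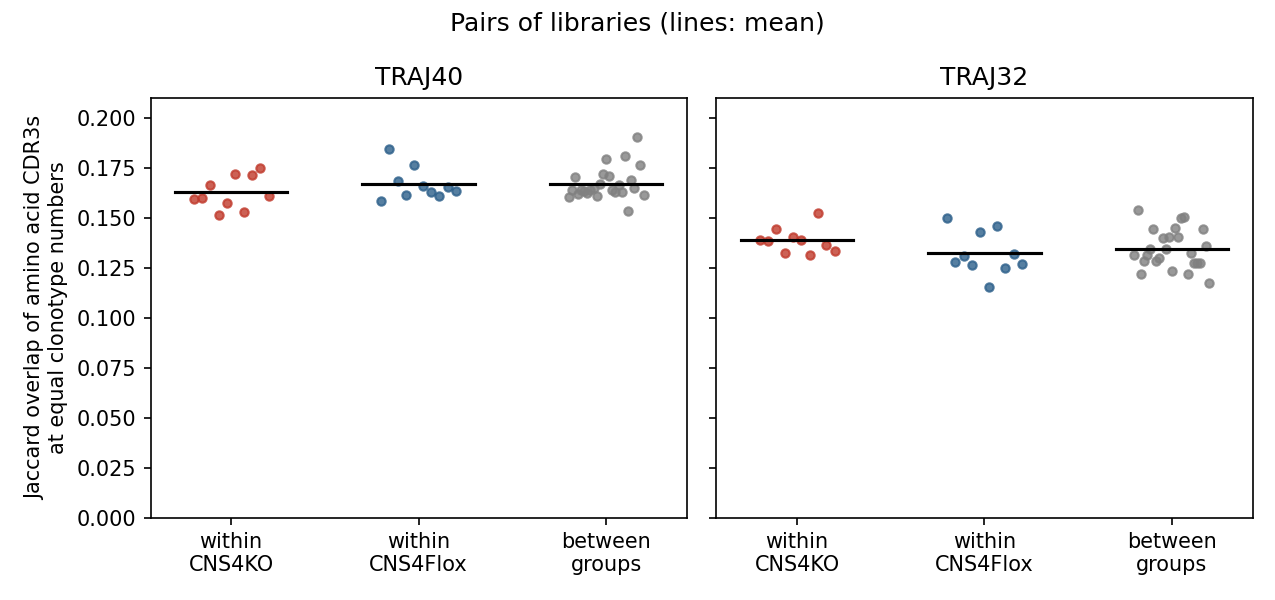
Jaccard overlap of amino acid CDR3s at equal numbers of clonotypes for each pair of libraries, within CNS4KO, within CNS4Flox and between the groups, with lines for the means. TRAJ40 pairs lie between 0.151 and 0.190 and TRAJ32 pairs between 0.115 and 0.154, with the 3 kinds of pair overlapping in both panels.

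Most CDR3s were private and a small public set carried many counts. Of the TRAJ40 amino acid CDR3s, 65.2% were listed in 1 library only and held 20.4% of TRAJ40 counts, whereas the 40 found in all 10 libraries, 1.07% of the CDR3s, held 17.7%. Of the TRAJ32 CDR3s, 66.3% were listed in 1 library and held 25.7% of counts, and the 7 found in all 10 libraries held 4.21%. TRAJ40 had more clonotypes in every library, so these shares do not compare the 2 J segments. At 300 clonotypes per end and library, a TRAJ40 CDR3 was listed on average in 1.52 ± 0.0338 of the other 9 libraries, the lowest of 21 ends, and a TRAJ32 CDR3 in 1.89 ± 0.0713 (SD, n = 10). These values share libraries and were not tested.

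Public CDR3s were shorter and had more nucleotide variants. TRAJ40 CDR3s found in all 10 libraries averaged 39.5 bases and 9.65 nucleotide variants, against 42.0 bases and 1.01 variants for those found in 1 library. For TRAJ32 the values were 44.1 bases and 7.57 variants in all 10 libraries, against 46.5 bases and 1.01 variants in 1 library. A CDR3 listed more often has more chances to show variants, so that the numbers of libraries and of variants are not independent.

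**Figure D5:**
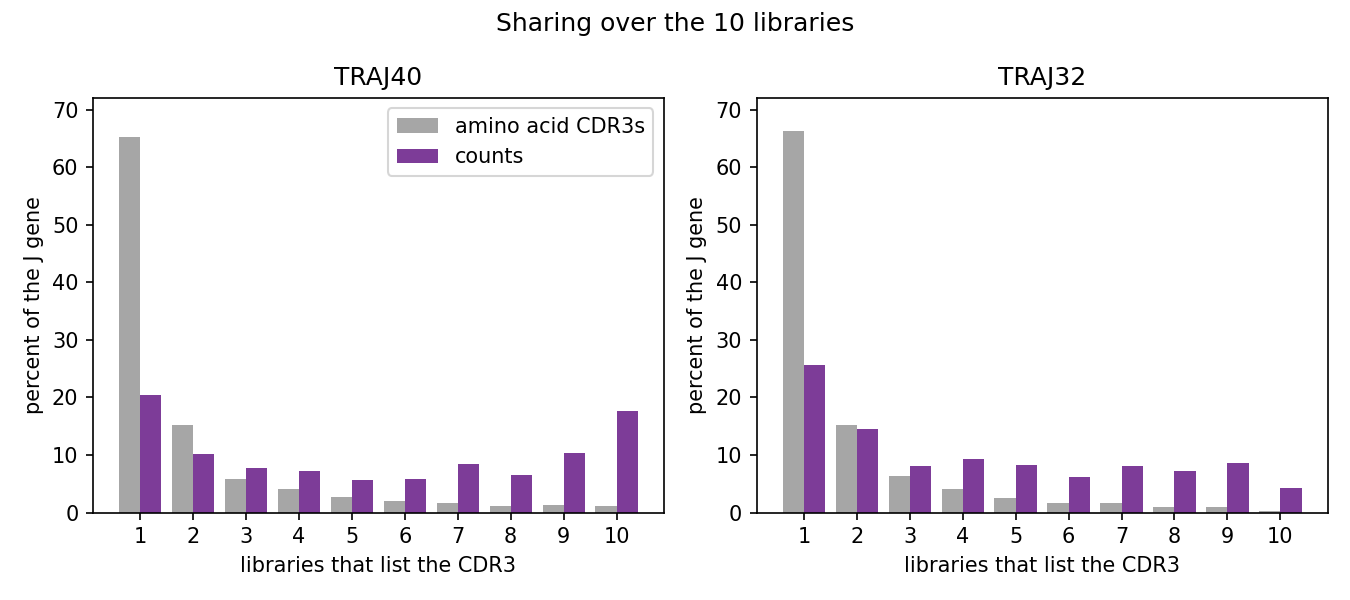
Percent of the amino acid CDR3s (grey) and of the counts (purple) of TRAJ40 (left) and TRAJ32 (right) by the number of libraries, 1 to 10, that list the CDR3. CDR3s of 1 library make up 65.2% and 66.3% of CDR3s, and the CDR3s of all 10 libraries hold 17.7% of TRAJ40 and 4.21% of TRAJ32 counts. The panels are not at equal numbers of clonotypes, with 9371 for TRAJ40 and 4409 for TRAJ32.

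CDR3s found in all 10 libraries held 18.4% ± 3.80 of TRAJ40 counts in CNS4KO and 17.0% ± 0.706 in CNS4Flox, and 4.01% ± 0.857 of TRAJ32 counts in CNS4KO and 4.28% ± 2.22 in CNS4Flox (SD over 5 libraries). The 5 with the highest mean share of TRAJ40 counts are shown by their most widespread nucleotide variant.

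TRAJ40 CAVS, 13 residues: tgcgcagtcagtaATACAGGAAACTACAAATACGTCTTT
TRAJ40 CALV, 13 residues: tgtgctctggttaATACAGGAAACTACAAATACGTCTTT
TRAJ40 CAVN, 12 residues: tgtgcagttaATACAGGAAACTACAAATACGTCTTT
TRAJ40 CAAS, 13 residues: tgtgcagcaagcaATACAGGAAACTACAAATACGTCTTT
TRAJ40 CALS, 13 residues: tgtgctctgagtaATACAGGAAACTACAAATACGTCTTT

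All 5 kept the full majority end and differed only in the 10 to 13 bases before it. Over all its 15 nucleotide variants the CAVS chain, which includes the leading clonotype of CNS4KO replicate 3 above, had 335, 31, 305, 23 and 49 counts in CNS4KO replicates 1 to 5, against 19, 5, 9, 11 and 11 in CNS4Flox replicates 1 to 5. Every CNS4KO library lay above every CNS4Flox library in these raw counts, and most CNS4KO counts came from replicates 1 and 3. As a share of TRAJ40 counts the CAVS chain averaged 4.72% ± 4.83 in CNS4KO and 0.530% ± 0.280 in CNS4Flox (SD over 5 libraries). The margin was then small, with 1.03% in CNS4KO replicate 4 and 0.977% in CNS4Flox replicate 1. How many other public CDR3s separate the groups in this way was not counted. The CALV chain had 74, 59, 41, 35 and 75 counts in CNS4KO replicates 1 to 5, against 18, 23, 23, 42 and 40 in CNS4Flox replicates 1 to 5, with overlap. It held 1.94% ± 0.408 of TRAJ40 counts in CNS4KO and 1.39% ± 0.568 in CNS4Flox (SD over 5 libraries), and 334 of its 430 counts were of the variant shown, which was found in 10 libraries.

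The other TRAJ40 chains had no common direction. The CAVN chain had 9, 5, 18, 5 and 67 counts in CNS4KO replicates 1 to 5, against 6, 54, 27, 29 and 16 in CNS4Flox replicates 1 to 5. The CAAS chain had 15, 8, 16, 74 and 4 counts in CNS4KO replicates 1 to 5, against 33, 15, 20, 18 and 17 in CNS4Flox replicates 1 to 5. The CALS chain had 1, 127, 5, 1 and 14 counts in CNS4KO replicates 1 to 5, against 8, 13, 9, 5 and 6 in CNS4Flox replicates 1 to 5. As a share of TRAJ40 counts, CAVN averaged 0.686% ± 0.821 in CNS4KO and 1.29% ± 0.960 in CNS4Flox, with its highest value, 2.75%, in CNS4Flox replicate 2. CAAS averaged 0.947% ± 1.34 in CNS4KO and 0.996% ± 0.415 in CNS4Flox, and CALS 1.15% ± 2.19 in CNS4KO and 0.395% ± 0.169 in CNS4Flox (SD over 5 libraries). The highest CAAS and CALS shares, 3.32% in CNS4KO replicate 4 and 5.05% in CNS4KO replicate 2, were those of 1 library each, and the other CNS4KO libraries lay within or below the CNS4Flox range. Clonotype counts make up the shares by which the members were chosen and were not tested.

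The leading public TRAJ32 chains were rarer.

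TRAJ32 CALR, 15 residues: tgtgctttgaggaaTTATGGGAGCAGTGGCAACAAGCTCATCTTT
TRAJ32 CALS, 15 residues: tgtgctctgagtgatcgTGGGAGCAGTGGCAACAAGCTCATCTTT
TRAJ32 CAVS, 14 residues: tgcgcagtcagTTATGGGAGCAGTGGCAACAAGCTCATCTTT
TRAJ32 CAVS, 16 residues: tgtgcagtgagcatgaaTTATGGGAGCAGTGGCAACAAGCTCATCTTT
TRAJ32 CALS, 14 residues: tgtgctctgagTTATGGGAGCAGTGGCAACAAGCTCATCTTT

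These 5 held 0.640% to 0.857% of TRAJ32 counts on average over the 10 libraries and 61 to 85 counts in all. The CALR chain had 33, 1, 8, 2 and 1 counts in CNS4KO replicates 1 to 5, against 10, 10, 7, 8 and 5 in CNS4Flox replicates 1 to 5. Its CNS4KO counts lay mostly in replicate 1, and the CNS4Flox counts were even. The 15-residue CALS chain, that with the most nucleotide variants, had 8, 22, 2, 1 and 13 counts in CNS4KO replicates 1 to 5, against 5, 7, 2, 3 and 10 in CNS4Flox replicates 1 to 5. As a share of TRAJ32 counts, the 14-residue CAVS chain averaged 0.411% ± 0.161 in CNS4KO and 1.03% ± 1.195 in CNS4Flox, and the 16-residue CAVS chain 0.584% ± 0.387 in CNS4KO and 0.756% ± 0.775 in CNS4Flox. The 14-residue CALS chain averaged 0.931% ± 0.822 in CNS4KO and 0.349% ± 0.215 in CNS4Flox (SD over 5 libraries). The CNS4KO and CNS4Flox ranges overlapped for all 5 chains, and none was tested.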

How the data were processed

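TCR alpha and beta transcripts were amplified from total RNA of sorted splenic Treg cells, per the labels and the series' design text. Each deposited table lists clonotypes of 1 library with whole-number counts, and the fraction deposited beside them is the count over the library total, per the file headers and the values. The aligner and the clonotype caller are not given in the sources used here, and the labels name mm10 as the build. Entries carried beta chain V and J names, so J segments were read from CDR3 ends, using a list from general knowledge, and V and J names were ignored. Alpha chains are thus those that the caller listed under beta names, an unknown part of all alpha chains. Of all counts, 64.7% had no beta J end, and 1.20% of those had no recognised TRAJ end.

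Distinct clonotypes were nucleotide CDR3s of a library. Mean CDR3 length, matched J bases and the share of convergent CDR3s were computed per library for 30 TRAJ ends with at least 100 clonotypes in every library and compared with limma (lmFit, eBayes), with Benjamini-Hochberg adjustment over these ends. Convergence and overlap used 20 draws of equal numbers of clonotypes per end. Overlap was tested by exact permutation of libraries. CDR3 starts with at least 10 clonotypes in at least 5 libraries were tested with edgeR, each end's clonotype number being the offset. The germline J sequence was not analysed here, and the majority end, the sign-flip tests, the CDR3 start tests and the setting without the largest clonotypes were chosen after seeing the tables. Intervals cover counting error only for shares. Members, lists and tests were chosen with earlier results of these data known. Named clonotypes are, per J segment, the 5 with the highest mean share among CDR3s in all 10 libraries, and the largest of each library, of which the sequences of the 4 largest for TRAJ40 and the largest for TRAJ32 are printed. Named TRAJ ends are the 2 next above and below in share, though the order is given over the 30 ends, and the 3 with the highest Pearson r. The limma, edgeR and sign-flip procedures were tested on simulated data. Models ran in limma 3.58.1 and edgeR 4.0.16 under R 4.3.3, and other steps in Python 3.11.15 with scipy 1.17.1, pandas 2.3.3, numpy 2.4.6 and matplotlib 3.10.9.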

Additional observations from a re-analysis of the deposited data

Results flagged for a closer look

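In 6 of 36 groups of 5 libraries examined, 1 library stood far from the other 4. The cut used flags about 1 in 20 groups of independent normal values. These groups repeat the same libraries and related measures, so 6 of 36 is not read as an excess. CNS4KO replicate 1 had the largest TRAJ40 clones, with 4.69 counts per clonotype against 2.94 to 3.43 in the other CNS4KO libraries, and the lowest share of TRAJ40 clonotypes with a single count, 51.2% against 58.2% to 60.6%. It was also the library with the most alpha counts, 68850. Its TRAJ32 share of distinct clonotypes was 2.63%, against 2.39% to 2.44% in the other CNS4KO libraries. Among CNS4Flox libraries, replicate 3 had a TRAJ32 share of distinct clonotypes of 1.83%, against 2.18% to 2.28% in the others, and is one of the pair with many shared clonotypes. In CNS4Flox replicate 5 the largest TRAJ40 clonotype held 15.9% of TRAJ40 counts, against 1.75% to 3.41% in the other CNS4Flox libraries. That library also matched 25.02 J bases per TRAJ40 clonotype on average, against 24.92 to 24.95.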

How the results depend on the processing

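Of 14 results, 8 tested and 6 described, 70 of 80 values under settings other than leaving out 1 library, and 131 of 140 values with 1 library left out, kept their direction, their side of the threshold and, where described, their size within 1 SD. The 8 tested results had main adjusted p of 0.520 to 0.947 (limma or exact permutation). Keeping their side of the threshold was thus likely beforehand, and these numbers do not measure robustness. The 80 include a minimum of 30 clonotypes per TRAJ end and an exact permutation test in place of limma. Both leave a member's difference as it was, so only its adjusted p could change. Weighted by count, the difference between CNS4KO and CNS4Flox changed sign for TRAJ32 CDR3 length (0.0396 bases, limma adjusted p = 0.942) and for TRAJ40 matched J bases (0.127 bases, limma adjusted p = 0.849). Without equal numbers of clonotypes, TRAJ40 convergence passed (-3.18 points, limma adjusted p = 0.0342), as did 6 of 30 ends in all, each of the 30 being lower in CNS4KO, and TRAJ32 overlap changed sign (-0.000430, exact adjusted p = 0.960), as it did with the Morisita-Horn index (-0.0273, exact adjusted p = 0.278). TRAJ32 convergence was 0.0786 points without the pair with many shared clonotypes. With clonotypes of a single count left out, the differences were 0.216 points for the TRAJ40 and 0.501 points for the TRAJ32 share of distinct clonotypes, and 2.75 and 1.17 counts per clonotype for TRAJ40 and TRAJ32. Under that setting no TRAJ32 value could be had for the 4 tested measures, as fewer than 100 clonotypes were left in a library. The causes were not tested. With each library left out in turn, the difference ranged from -0.112 to 0.0265 bases for TRAJ32 CDR3 length, from -0.638 to 0.542 points for TRAJ32 convergence and from -0.0136 to 0.100 points for the TRAJ40 share of distinct clonotypes. The TRAJ32 share of counts differed by 0.0355 points without CNS4Flox replicate 3 and by 0.232 without CNS4Flox replicate 1. Germline J bases could not be counted, as no genome sequence was used here. No paired analysis was possible because the replicate numbers were given in the order of the samples and pair nothing. Values rest on 1805 to 3940 TRAJ40 counts and 641 to 1473 TRAJ32 counts per library, and groups of 5 allow no exact p below 0.00794.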
